A study of Oryza sativa with 6 samples.

Results

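The genes described are a pair of fermentation enzymes, Adh2 (RefSeq gene LOC4350054) and PDC2 (LOC4332519), and a pair of non-symbiotic hemoglobins, NSHB1 and NSHB2. Every probe set whose single annotated gene carried one of these names as symbol or synonym was taken, which gave 7 probe sets for 4 genes, of 57194 probe sets and 17905 annotated genes on the array. PDC2 has 2 of them, NSHB1 has 3, and Adh2 and NSHB2 have 1 each. The material was whole rice grains (caryopses) sampled 7 days after flowering. Wild-type Zhonghua11, a japonica cultivar, gave 3 arrays, and the mutant gif1 gave 3, each described as a biological replicate. The mutant carries a lesion in GIF1, the cell-wall invertase gene, whose enzyme cleaves sucrose unloaded into the grain, and the labels name no further allele, treatment or background for either group. Whether grains of several plants were pooled is not stated in the labels, so p-values measure only the spread between these samples.

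Alcoholic fermentation lets a cell keep glycolysis running when oxygen is short. Pyruvate decarboxylase (PDC) turns pyruvate into acetaldehyde, and alcohol dehydrogenase (ADH) reduces acetaldehyde to ethanol and so returns NAD to glycolysis. Non-symbiotic hemoglobins, also called phytoglobins, bind oxygen very tightly and take part in removing nitric oxide, and their transcripts are known to rise in plant tissues short of oxygen. The interior of a filling cereal grain is known to be low in oxygen, and all of these genes are commonly read as markers of that state.

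Of the 7 probe sets, all of which were tested because their signals averaged at least 74.1 over the 6 arrays, 1 was higher in gif1 and none was lower at a limma adjusted p under 0.05. That is 14.3% of the probe sets, against 12.0% of all 28597 probe sets tested (5.98% in the higher direction). The probe set that was higher belongs to NSHB1, and the 2 other probe sets of that gene did not pass. The wild-type mean of the higher one, 60.3, lay below the filter, so it was tested only through its gif1 signals. With no filter on dim probe sets it did not pass (limma adjusted p = 0.0626). The fermentation enzymes Adh2 and PDC2 did not pass on any probe set. For 1 of the 7 the genotypes lay fully apart, against 33.4% of all probe sets tested. The median log2 difference, gif1 minus wild type, was -0.07 over the 7 and -0.06 over all probe sets tested.

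Adh2, the alcohol dehydrogenase, was bright in both genotypes, with a signal above that of 93.1% to 94.7% of probe sets on each array. Wild-type replicates 1 to 3 read 3248.6, 2924.6 and 2926.7, and the mutant ones 2818.2, 2590.5 and 3033.5. The groups overlapped, since gif1 replicate 3 lay above wild-type replicates 2 and 3. Mean signal was 3033 ± 186 (SD, n = 3) against 2814 ± 222 (SD, n = 3). The log2 difference was -0.11 (SE 0.12, limma adjusted p = 0.592), with a 95% interval from -0.37 to 0.15. Log2 values are of signal plus an offset of 17.7.

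PDC2, the pyruvate decarboxylase, was also bright on both of its probe sets, which share a cluster number and differ as S1 and S2 in the array's naming. S2 gave signals of 12398.6, 14743.0 and 13426.7 on the wild-type arrays and of 12347.5, 13561.0 and 12550.7 on the mutant arrays, more than 98.8% to 99.0% of probe sets on each array. The highest array was wild-type replicate 2 and the lowest gif1 replicate 1, with the rest interleaved. The means of 13523 ± 1175 (SD, n = 3) and 12820 ± 650 (SD, n = 3) gave a log2 difference of -0.07 (SE 0.10, limma adjusted p = 0.683), with a 95% interval from -0.30 to 0.15.

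For S1 of PDC2 the wild-type signals were 5082.4, 6348.4 and 7202.5, and the mutant signals 4796.4, 5284.0 and 4837.3. Wild-type replicates 2 and 3 lay above every gif1 array, and wild-type replicate 1 fell between gif1 replicates 2 and 3. The log2 difference was -0.31 (SE 0.13, limma adjusted p = 0.161), with an unadjusted 95% interval from -0.60 to -0.01. Without wild-type replicate 1 the same probe set passed as lower in gif1, at -0.44 (limma adjusted p = 0.0274).

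The 2 PDC2 probe sets had a Pearson correlation of 0.70 over the 6 arrays, which they share. The log2 ratio of S1 to S2 within an array was -1.28, -1.21 and -0.90 for wild type, against -1.36, -1.36 and -1.37 for the mutant. The gif1 ratios were nearly equal to each other and all lay below the wild-type ones. The difference was -0.23. Its exact permutation test, two-sided, gave p = 0.1, which is the floor for a design of 3 against 3, and 0.133 after adjustment over 4 such ratios. These 4 ratios between probe sets of 1 gene were chosen after the values were seen.

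The ratio of the 2 enzymes within an array did not separate the genotypes. The log2 ratio of Adh2 to the brighter PDC2 probe set was -2.15 ± 0.20 (SD, n = 3) in wild type and -2.18 ± 0.18 (SD, n = 3) in gif1. The difference of -0.03 gave a two-sided exact permutation p = 0.9, also 0.9 after adjustment over 2 ratios. Only its change between genotypes can be read, since the level of one probe set cannot be set against another's.

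**Figure D1:**
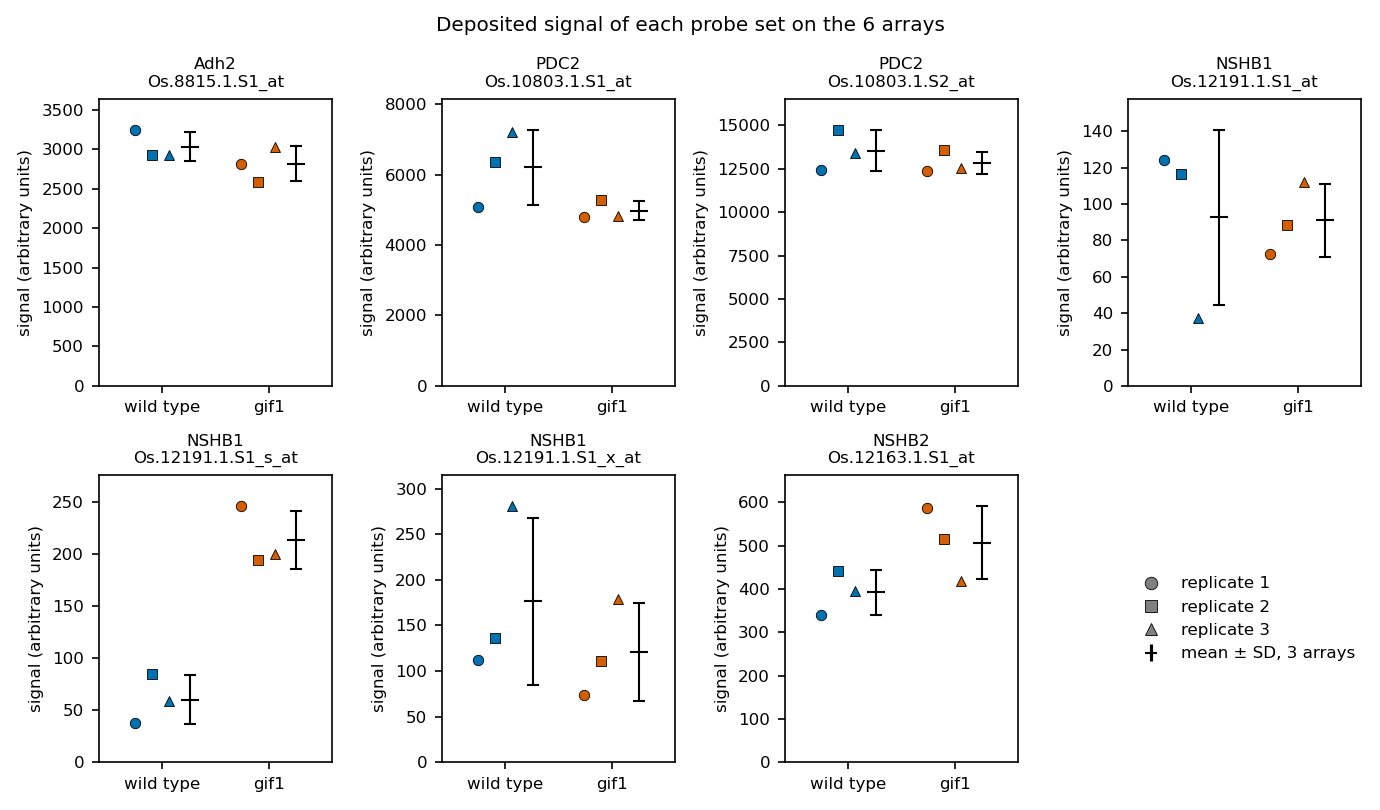
Deposited signal (arbitrary units, linear axes from 0) of the 7 probe sets of Adh2, PDC2, NSHB1 and NSHB2 on each of 3 wild-type (blue) and 3 gif1 (orange) arrays, with marker shape for the replicate number and the mean ± SD beside each group. The NSHB1 probe set ending in _s_at is the one whose groups are apart (37.4 to 84.5 against 194.6 to 246.1), while the groups overlap in the other panels.

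Of the 3 NSHB1 probe sets, which the platform annotation ties to the same transcript accession, only the one ending in _s_at passed. Those ending in _at alone and in _x_at did not pass, and their intervals overlapped and left the direction of a change undetermined. In the array maker's naming, a probe set ending in _at alone is meant to be unique to its transcript, one ending in _s_at holds probes shared by several transcripts, and one ending in _x_at holds probes similar to unrelated sequences. Related hemoglobin genes lie close by: NSHB3 and NSHB4 follow NSHB1 directly in the order of the RefSeq gene table, and no probe set used here has either as its single gene. Which hemoglobin transcripts the shared probes read was not tested.

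On the _s_at probe set of NSHB1 the wild-type arrays read 37.4, 84.5 and 59.1, and the gif1 arrays 246.1, 194.6 and 200.4. All gif1 arrays lay above all wild-type arrays, and the lowest gif1 signal was well above the highest wild-type one. The mean went from 60.3 ± 23.6 (SD, n = 3) to 213.7 ± 28.2 (SD, n = 3), a ratio of deposited signals of 3.54. The wild-type mean lay below the filter of 74.1, so this probe set was tested only through its gif1 signals (137 over all 6 arrays), and the ratio rests on a dim baseline. The log2 difference was 1.61 (SE 0.38, limma adjusted p = 0.0208), with a 95% interval from 0.77 to 2.45, on the scale with the offset, where the change of a dim probe set is smaller than in the plain signals.

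That call rested on all the mutant arrays being present. Leaving out gif1 replicate 1, 2 or 3 kept the difference at 1.51, 1.67 and 1.65 but took the limma adjusted p to 0.109, 0.0729 and 0.0824. With no filter on dim probe sets, where 57194 are tested, it was 0.0626. The difference stayed above 0 under all 15 alternatives that kept the probe set, and it passed in 11 of them. All of these refit the same arrays. Those that passed kept the filter, which this probe set clears only through its gif1 signals, so the tally adds no separate support.

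**Figure D2:**
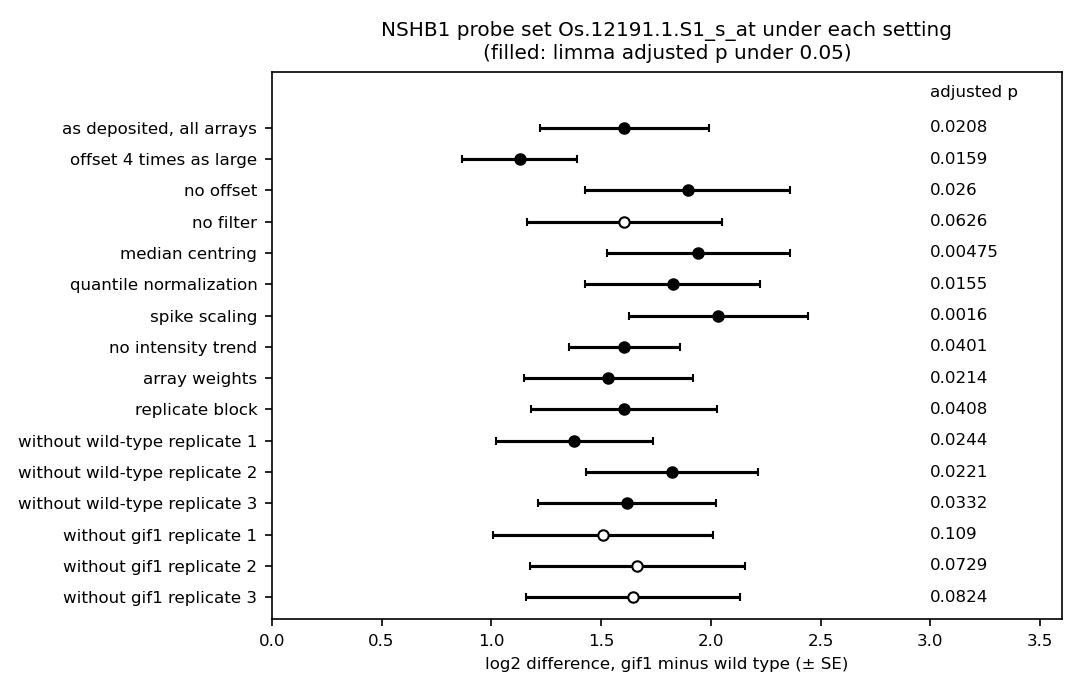
Log2 difference in signal, gif1 minus wild type (± SE), of the NSHB1 probe set ending in _s_at under each setting, with the limma adjusted p at the right and filled points where it is under 0.05. The estimates lie between 1.13 and 2.03, and the open points are those with a gif1 array left out or with no filter.

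The NSHB1 probe set ending in _at alone gave 124.2, 116.7 and 37.2 for wild type, against 72.5, 88.5 and 112.1 for the mutant. Wild-type replicate 3 was the lowest and wild-type replicate 1 the highest of the 6, so the mutant arrays lay inside the wild-type range. Its means were 92.7 ± 48.2 (SD, n = 3) and 91.0 ± 19.9 (SD, n = 3), and its log2 difference was 0.08 (SE 0.50, limma adjusted p = 0.933). The 95% interval ran from -1.01 to 1.17, so this probe set left a change of either direction undetermined.

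The _x_at probe set of NSHB1, the brightest of the 3 on average, had a difference below 0 that did not pass. Its wild-type signals were 112.4, 135.9 and 280.7, and its mutant signals 73.4, 110.8 and 179.2. Replicate 3 was the highest within each genotype, and the groups overlapped. The means of 176 ± 91.1 (SD, n = 3) and 121 ± 53.7 (SD, n = 3) gave a log2 difference of -0.46 (SE 0.42, limma adjusted p = 0.514), with a 95% interval from -1.38 to 0.47.

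Set against each other within arrays, the NSHB1 probe sets separated the genotypes only where the _s_at probe set took part. Its groups were already apart, so these ratios reuse its signals and add no support to its call. They belong to the 4 ratios chosen after the values were seen. The log2 ratio of _s_at to _x_at was -1.24, -0.59 and -1.96 for wild type, against 1.53, 0.72 and 0.15 for the mutant. Every gif1 ratio was above 0 and every wild-type ratio below it. The difference was 2.06, with p = 0.1 by the two-sided exact permutation test, again the floor, and 0.133 after adjustment over 4 ratios. The ratio of _at to _s_at differed by -1.52 with the same p-values, and that of _at to _x_at by 0.54 (two-sided exact permutation p = 0.9). Over the 6 arrays the _s_at probe set had a Pearson correlation of 0.03 with _at and -0.41 with _x_at, and _at had -0.48 with _x_at.

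NSHB2, the second hemoglobin, gave 339.1, 441.8 and 395.4 for wild type, against 586.2, 516.5 and 418.4 for the mutant. Mutant replicates 1 and 2 lay above every wild-type array, and gif1 replicate 3 fell below wild-type replicate 2. Mean signal was 392 ± 51.4 (SD, n = 3) against 507 ± 84.3 (SD, n = 3). The log2 difference was 0.35 (SE 0.20, limma adjusted p = 0.281), with a 95% interval from -0.09 to 0.79. NSHB2 passed as higher in gif1 once arrays were centred on their medians (0.69, limma adjusted p just under 0.05) or scaled to the hybridization spikes (0.84, limma adjusted p = 0.00899), so its call depended on the scaling.

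The ratio of the 2 hemoglobins depended on which NSHB1 probe set stood for that gene. With the brightest, _x_at, the log2 ratio of NSHB1 to NSHB2 was -1.17 ± 0.61 (SD, n = 3) in wild type and -1.98 ± 0.79 (SD, n = 3) in gif1. The difference of -0.81 gave a two-sided exact permutation p = 0.3, or 0.6 after adjustment over 2 ratios. It ran from -0.43 without gif1 replicate 1 (-0.46 without wild-type replicate 3) to -1.22 without gif1 replicate 3. With _at it was -0.27, and with _s_at 1.26.

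The scaling of the arrays moved every one of these differences. The median log2 difference of all tested probe sets was -0.06 in the signals as given, 0.28 once arrays were centred on their medians and 0.43 under spike scaling. Adh2 stood at -0.11, 0.23 and 0.40 under the same settings and passed under none of them (limma adjusted p = 0.592, 0.301 and 0.0735). The S2 probe set of PDC2 stood at -0.07, 0.26 and 0.43 and passed as higher with spike scaling alone (limma adjusted p = 0.0175), and its S1 probe set stood at -0.31, 0.03 and 0.20. The _s_at probe set of NSHB1 stood at 1.61, 1.94 and 2.03 and passed under each.

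**Figure D3:**
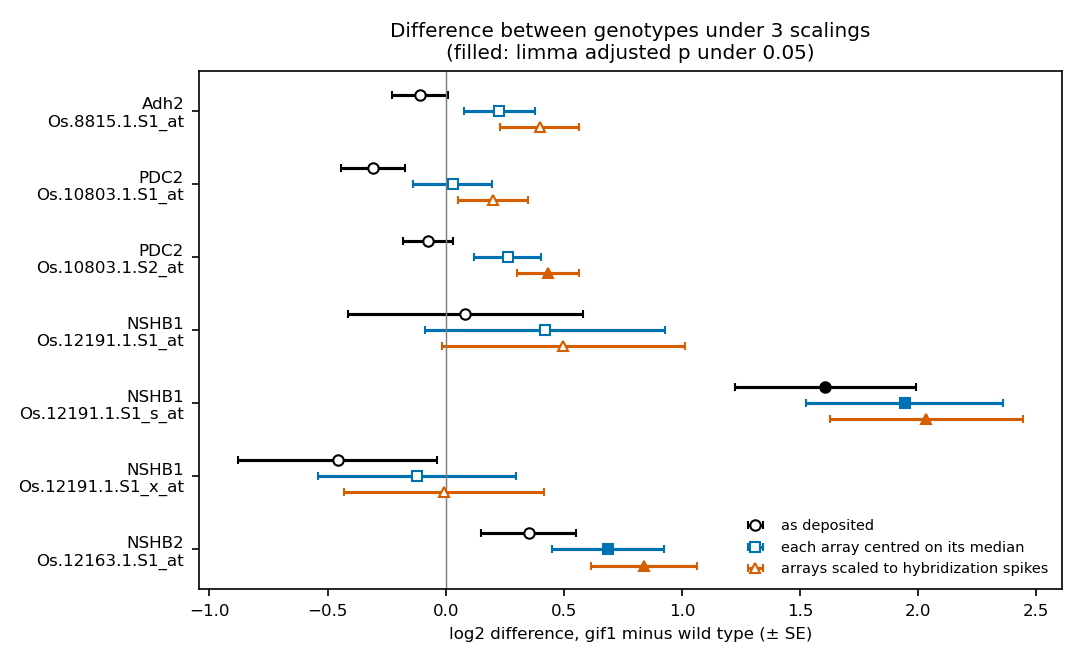
Log2 difference in signal, gif1 minus wild type (± SE), of the 7 probe sets with signals as deposited (black circles), centred on each array's median (blue squares) and scaled to the hybridization spikes (orange triangles), with filled points at a limma adjusted p under 0.05. The NSHB1 probe set ending in _s_at is filled under each scaling (1.61, 1.94 and 2.03), whereas Adh2 and both PDC2 probe sets move from below 0 as deposited to above it.

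The other genes of these pathways came from lists of symbols, with 1 probe set per gene, the brightest. They are read against 13.6% of 15423 genes called in all (1221 higher and 869 lower). The median log2 difference of the 15423 genes was 0.03. Whole-array counts given for other settings are of all tested probe sets rather than of genes, so their unit differs from that of the lists. In the fermentation list 6 genes matched, 5 had a probe set and 3 were bright enough to test, of which none passed. Besides Adh2 and PDC2 the third was PPDKB, a pyruvate phosphate dikinase that interconverts pyruvate and phosphoenolpyruvate, at -0.25 (SE 0.09, limma adjusted p = 0.0929). The other pyruvate decarboxylases were dim: PDC1 averaged 44.9 ± 26.0 (SD, n = 3) in wild type and 58.5 ± 58.7 (SD, n = 3) in gif1. PDC3 averaged 66.2 ± 41.1 (SD, n = 3) and 57.1 ± 36.5 (SD, n = 3), and both fell below the filter at a mean signal of 74.1.

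Of 8 genes of low-oxygen signalling and submergence, 1 rose, 1 fell and 6 did not pass, with a median log2 difference of -0.10. With median centring 2 were higher and 1 lower (median 0.24), and with spike scaling 4 were higher and none lower (median 0.35). Of all 28597 probe sets tested, 5817 were higher and 613 lower with median centring (median 0.28). With spike scaling 9777 were higher and 477 lower (median 0.43). Without the intensity trend 1 gene of the list was lower and none higher. MYBS1, a transcription factor that activates amylase genes in sugar-starved rice cells, fell from 437 ± 29.9 (SD, n = 3) to 198 ± 31.4 (SD, n = 3). Its log2 difference was -1.08 (SE 0.22, limma adjusted p = 0.0103), and it passed whichever array was left out but not with spike scaling (-0.60, limma adjusted p = 0.0844). SNRK1A, a sugar-sensing protein kinase upstream of MYBS1, rose from 2096 ± 33.9 (SD, n = 3) to 3006 ± 82.3 (SD, n = 3), a log2 difference of 0.52 (SE 0.11, limma adjusted p = 0.0142). That call was lost without any 1 gif1 array (limma adjusted p from 0.0518 to 0.0645), and its other probe set, at 0.50, did not pass (limma adjusted p = 0.0844). AMY3D, an amylase that this kinase and MYBS1 act on in starved cells, did not pass at -0.12 (SE 0.61, limma adjusted p = 0.923).

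The kinase SNRK1B (-0.30, SE 0.10, limma adjusted p = 0.0763) and nitrate reductase NIA1 (-0.69, SE 0.28, limma adjusted p = 0.128) did not pass. Of the remaining genes in that list, the ethylene response factor EREBP1 stood at -0.08, the trehalose phosphatase TPP7 at 0.47 and the alternative oxidase AOX1A at 0.50, none passing as deposited. TPP7 passed as higher with median centring (0.81, limma adjusted p = 0.0175) and spike scaling (0.96, limma adjusted p = 0.00629). AOX1A (0.96, limma adjusted p = 0.0368) and EREBP1 (0.43, limma adjusted p = 0.0216) passed with spike scaling. One dimmer probe set of SNRK1B did pass as lower (-0.36, limma adjusted p = 0.0360), which held in just 1 of the 6 fits that leave out an array, that lacking wild-type replicate 1 (limma adjusted p up to 0.143).

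Of 16 glycolysis genes 3 rose, none fell and 13 did not pass, with a median log2 difference of 0.21. ALDP, the plastid aldolase, which serves carbon fixation as well as glycolysis in plastids, rose from 10940 ± 1462 (SD, n = 3) to 18584 ± 1833 (SD, n = 3). Its log2 difference was 0.77 (SE 0.12, limma adjusted p = 0.00285), and it passed whichever array was left out. A second ALDP probe set also passed (0.72), and the dimmest stood at -0.06 and did not. The aldolase FBA1 stood at 0.51 (SE 0.14, limma adjusted p = 0.0421) and passed in just 1 of the 6 fits that leave out an array, the one lacking wild-type replicate 1 (limma adjusted p up to 0.134). The hexokinase LOC4326547 stood at 0.65 (SE 0.15, limma adjusted p = 0.0192), a call that failed once wild-type replicate 2, gif1 replicate 1 or gif1 replicate 3 was left out (limma adjusted p up to 0.0956). FBA3, a further aldolase, stood at -0.31 (SE 0.11, limma adjusted p = 0.0897). With median centring 9 of the 16 passed as higher and with spike scaling 12. Over the whole array, 5817 and 9777 of 28597 probe sets did so under these settings. None of the 16 passed without the intensity trend, ALDP included, where 784 probe sets passed over the whole array. Without wild-type replicate 2, gif1 replicate 1 or gif1 replicate 3 only 1 of the 16 did.

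Of 4 tested sucrose synthases, which cleave sucrose reversibly and so supply glycolysis with less use of ATP than invertase does, 1 fell and 3 did not pass. SUS4 stood at -0.81 (SE 0.19, limma adjusted p = 0.0216), a call lost without any 1 gif1 array (limma adjusted p up to 0.0972), with median centring (-0.47, limma adjusted p = 0.104), with spike scaling (-0.30, limma adjusted p = 0.219) and without the intensity trend. SUS1, SUS2 and SUS3 stood at 0.04, 0.30 and 0.31. The list's calls changed with the scaling. Its median log2 difference was 0.17 as deposited, 0.50 with median centring and 0.67 with spike scaling. SUS2 and SUS3 passed as higher with median centring (0.64 and 0.65), and SUS1, SUS2 and SUS3 with spike scaling (0.54, 0.81 and 0.82). None was lower under either, and over the whole array 5817 and 9777 of 28597 probe sets passed as higher.

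**Figure D4:**
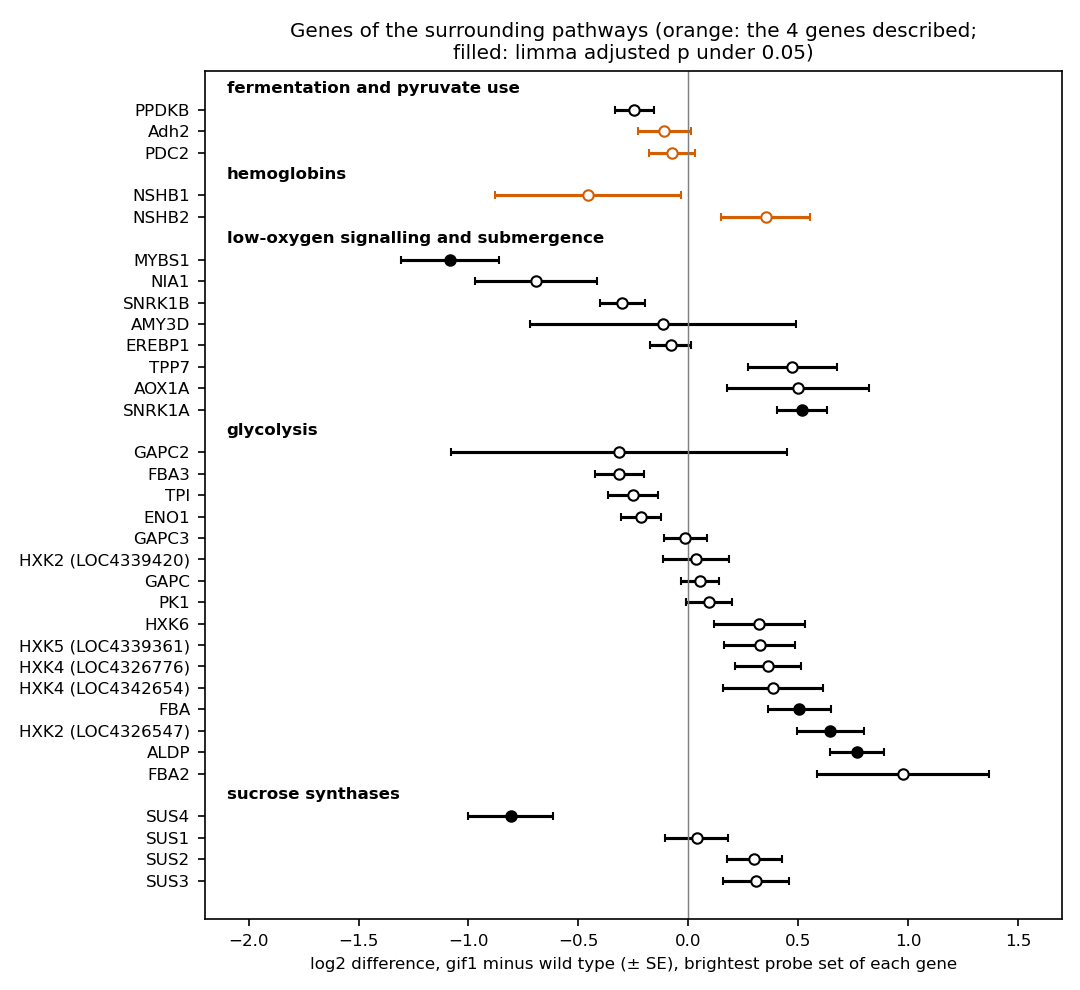
Log2 difference in signal, gif1 minus wild type (± SE), of the brightest probe set of each tested gene in 5 lists, with Adh2, PDC2, NSHB1 and NSHB2 in orange and filled points at a limma adjusted p under 0.05. MYBS1 (-1.08) and SUS4 (-0.81) are the filled points below 0, and ALDP (0.77), the hexokinase LOC4326547 (0.65), SNRK1A (0.52) and FBA1 (0.51, labelled FBA) are those above it.

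The genes next to each of the 4 were looked at up to 2 places away on each side, and 5 of them had a probe set. LOC4350055, which follows Adh2, rose from 218 ± 47.9 (SD, n = 3) to 403 ± 41.6 (SD, n = 3), a log2 difference of 0.85 (SE 0.23, limma adjusted p = 0.0369). Of the 6 fits leaving out an array, it passed in the 1 that lacked wild-type replicate 1 (limma adjusted p up to 0.132). The call was also lost with no filter (limma adjusted p = 0.0781) and with the replicate number as a block (limma adjusted p = 0.0647). LOC4332518, which precedes PDC2, stood at -0.12 (SE 0.14, limma adjusted p = 0.603). NSHB2 is preceded by AOS2 (LOC4332121), an allene oxide synthase of jasmonate synthesis, at -0.93 (SE 0.50, limma adjusted p = 0.253), and followed by LOC4332124 at -0.80 (SE 0.59, limma adjusted p = 0.408). LOC4332165, which precedes NSHB1, averaged 76.6 ± 64.4 (SD, n = 3) and 69.4 ± 32.4 (SD, n = 3) and was too dim to test.

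Over the 6 arrays, the named genes whose log2 signal tracked each of the 4 most closely are given as a description, since so few arrays yield high correlations among many genes. For Adh2 they were HAK22, FIB and MIL2 (Pearson r = 0.999, 0.980 and 0.972), and for the S2 probe set of PDC2 ML2, OsCyp3 and KIN1 (0.961, 0.958 and 0.953). For the _x_at probe set of NSHB1 they were OsPUT1, osysl9 and OsRac2 (0.976, 0.946 and 0.935), and for NSHB2 OsTLP1, OsPCL1 and EZ1 (0.976, 0.972 and 0.958).

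Markers of other grain tissues differed between the genotypes as well, and some array controls lay apart. GIF1 itself fell from 564 ± 119 (SD, n = 3) to 155 ± 47.5 (SD, n = 3), a log2 difference of -1.77 (limma adjusted p = 0.00254), although where its probes lie relative to the lesion is not stated. Of 8 starchy endosperm markers 7 were lower in gif1 as deposited. That count was 1 with median centring or spike scaling (each with 1 higher), 1 with quantile normalization, 2 with no filter, 0 without the intensity trend, and 4 without gif1 replicate 1 or 3. Their summed signal ran from 507640 to 645815 in wild type and from 362603 to 410887 in gif1. Of 6 aleurone and embryo markers 4 were lower and 1 higher (summed signal 45801 to 81719 against 19141 to 21497). The higher one was OSH1 (0.93, limma adjusted p = 0.0371). It passed in 1 of the 6 fits that leave out an array, and its other probe set did not pass (limma adjusted p = 0.0993). Of 5 green pericarp markers 4 were higher (74776 to 79974 against 93789 to 114891). Without the intensity trend 3 aleurone and embryo markers were lower and none higher, and 3 green pericarp markers were higher. Over all 15423 genes 13.6% were called as deposited. No marker was listed at 0. In whole grains fewer cells of a type and less RNA per cell cannot be told apart. The poly-A control RNAs lay at -2.24, ribosomal RNA probe sets at -1.06, the hybridization spikes at -0.51 and the median signal at -0.41 on the log2 scale, each with a two-sided exact permutation p = 0.1 and 0.2 after adjustment over 8 measures. The part of these markers and controls in the NSHB1 difference was not tested.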

How the data were processed

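Biotin-labelled RNA was read on 6 Affymetrix rice arrays, 3 per genotype. Each probe set has a deposited linear intensity from GCOS 1.4, per the submitters' processing notes, and its background, summary and scaling steps are not stated there. Trimmed by 2% at both ends, every array averages about 500.1. Of 57381 probe sets, 187 controls were left out. The scale is log2(signal + 17.7), with the 25th percentile as offset, which understates changes in dim signals. A mean of at least 74.1, the median, was required, which left 28597 to test with limma 3.58.1 in R 4.3.3 (lmFit, eBayes with an intensity trend, genotype the only term, Benjamini-Hochberg at 0.05). For arrays, their number limits the precision. The fit was tested on simulated data.

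The platform annotation gives a single gene for 22436 probe sets, named here through RefSeq's table for assembly ASM3414082v1, whose build may differ from the array's, so no coordinates are printed. Genes of another kind that share a listed symbol (homeobox genes under HB symbols, an ethylene receptor under PK1, and the genes found under SK1 and SK2, which are not the SNORKEL genes) were left out of the lists. Ratios within arrays and the array controls had exact permutation tests, two-sided, with scipy 1.17.1. The genes named are the 4 with all their probe sets, GIF1, neighbours up to 2 places away, up to 4 genes of each list with the smallest p, and the 3 named genes most like each in pattern. EREBP1, TPP7, AOX1A, AMY3D, PDC1, PDC3 and OSH1 were added after their values were seen. The 4 genes and the lists were chosen with earlier results of these data known. Alternatives were another offset, filter, scaling, variance prior or weighting, the replicate number as a block, and each array left out.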

Additional observations from a re-analysis of the deposited data

How the results depend on the processing

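Of the 7 probe sets, those of Adh2 and the NSHB1 ones ending in _at and _x_at passed under no alternative run, and the other 4 changed call under at least 1. The NSHB1 probe set ending in _s_at (1.61 as reported) lost its call with no filter (1.61, limma adjusted p = 0.0626) and without any 1 gif1 array, its values with single arrays left out running from 1.38 to 1.82. NSHB2 gained one with median centring (0.69) and spike scaling (0.84), the S2 probe set of PDC2 turned from -0.07 to 0.43 with spike scaling, and its S1 probe set passed without wild-type replicate 1, with values from -0.44 to -0.19 over single arrays left out. The number of probe sets called over the whole array, 3425, became 6430 with median centring (5817 higher, 613 lower, 90.5% higher), 10254 with spike scaling (9777 and 477, 95.3% higher), 784 without the intensity trend, and from 1436 to 4294 with single arrays left out (1582, 1769 and 1436 without gif1 replicate 1, 2 and 3). The ratio of NSHB1 to NSHB2 turned from -0.81 to 1.26 with the _s_at probe set, an alternative chosen after seeing the data. The cause was not tested in any of these. With the replicate number as a block, the _s_at probe set stood at 1.61 (limma adjusted p = 0.0408) and the block changed no call of the 7 probe sets, leaving 2830 calls over the array. Same-numbered arrays correlated at -0.03, 0.02 and -0.05 in their deviations from the group means, so the numbers were not taken as pairing. The stricter filter left out the NSHB1 probe sets ending in _at and _s_at. The dim NSHB1 probe sets varied by up to 52.0% (coefficient of variation) within a genotype, and Adh2 by up to 7.87%.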
